A study of Homo sapiens with 6 samples.

Results

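DNA repair genes encode the sensors, nucleases, helicases and ligases that mend breaks, crosslinks, mismatches and damaged bases, and 56 of them were compared here between libraries of a human leukemia line labelled as carrying EGR3 or an empty vector. They were chosen by name and grouped by the repair route in which each protein is best known, and rows of the count table were taken where the gene symbol equals the name. Of the 56 genes, 55 are among the 35410 genes of the table, and MUTYH was not analysed here. The test covered 53 of the 55, because ERCC5 and MGMT had too few counts.

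RNA was measured by MACE-Seq, which sequences the 3′ ends of polyadenylated transcripts, in 6 libraries. The cells are labelled as SEM, an established human proB leukemia line with the KMT2A::AFF1 fusion, in both groups. SEM::mock carries an empty vector and SEM::EGR3 carries a vector that overexpresses EGR3, a zinc finger transcription factor, with 3 biological replicates each. Both groups received doxycycline at 1 µg/mL for 48 h before RNA was taken, so the inducer is shared by both. Each group is 1 transfected line, and whether either was a single clone is not given in the sources used here.

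The label of the SEM::mock libraries was checked against marker genes. EGR3 followed its label, with 8, 10 and 6 counts in SEM::mock replicates 1 to 3 against 9768, 4952 and 5557 in SEM::EGR3. The 12 markers of the B lineage did not, as their summed level was between 2.65 and 5.88 CPM (counts scaled to 1000000 per library) in SEM::mock and between 497 and 524 CPM in SEM::EGR3, and EBF1 was at 0 in every SEM::mock library and PAX5 at 1, 1 and 2 counts. All 8 tested markers of this list were higher in SEM::EGR3. The untested ones were sparse in SEM::EGR3 too, with 2, 0 and 1 counts for DNTT in replicates 1 to 3. RAG2 had 1, 0 and 0 there, BLNK 0, 1 and 0, and VPREB1 8, 6 and 5. HOXA7, a target of KMT2A fusions, and CDKN2A were also at 0 in all 3 SEM::mock libraries, and the 8 fusion targets summed to between 59.3 and 69.6 CPM there and to between 876 and 935 CPM in SEM::EGR3. The 14 erythroid and megakaryocyte markers summed to between 5026 and 5318 CPM in SEM::mock and between 6246 and 6486 CPM in SEM::EGR3. Of the 13 of these that were tested, 4 were higher in SEM::EGR3, such as HBA1 (515 ± 25.7 against 1497 ± 35.4 CPM), and 9 lower, such as HBG2 (2343 ± 38.2 against 949 ± 30.7 CPM). The 6 listed myeloid markers summed to between 280.4 and 289 CPM against 95.0 and 97.1 CPM, and the 6 T cell markers to between 59.6 and 65.3 against 58.9 and 64.7 CPM. The T cell sums are alike although all 4 tested members were called and past 2-fold, with LCK (0.131 ± 0.226 against 52.2 ± 1.79 CPM) and CD2 higher and CD3D (58.1 ± 2.33 against 6.26 ± 0.900 CPM) and CD3E lower. Transcripts of erythroid markers, which do not belong to the labelled proB type, were thus present in both lines. The libraries labelled SEM::mock also lack defining transcripts of that type, and since this holds for all 3, no result could be recomputed without them. An effect of EGR3 and any other difference between the lines cannot be told apart in the comparisons that follow, in which SEM::mock and SEM::EGR3 are used as the names on the labels.

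As background, each repair route answers a different lesion. Homologous recombination and non-homologous end joining mend breaks through both strands, the Fanconi anemia genes unhook interstrand crosslinks, mismatch repair corrects replication errors, nucleotide excision repair removes bulky lesions, and base excision repair replaces single damaged bases. In proliferating blood progenitors much of the demand comes from replication, and in developing B cells the end joining factors also complete V(D)J recombination.

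Over all routes, repair genes moved in both directions and mostly by little. By the quasi-likelihood test of edgeR, fitted over 15465 genes with Benjamini-Hochberg adjustment and a threshold of 0.05, 18 of the 53 tested members had risen in SEM::EGR3, 13 had fallen and 22 did not pass. Called members made up 58.5%, against 68.5% of all tested genes. The higher ones made up 34.0% of the members against 36.5% of all genes, and the lower ones 24.5% against 32.0%. By route the called share was 50% for break sensing, mismatch repair, nucleotide excision repair and base excision repair. It was 58.3% for homologous recombination, 70% for crosslink repair and 80% for end joining, in groups of 4 to 12 tested genes. The largest changes were those of CHEK2, ERCC4 and PARP1, which rose, and of ERCC2, which fell, and no other member was called with a change of at least 2-fold. These 4 are 7.55% of the tested members, where 25.2% of all genes passed the same criteria. All 53 members had at least 10 counts in every library, and among the 12801 genes that meet this limit the share past 2-fold was 15.8%, again with 4 members. Without SEM::EGR3 replicate 1 the count fell to 2, because ERCC2 (log2 fold change -0.98) and PARP1 (0.99) then lay just inside the limit. The 3 libraries of one line did not overlap those of the other for 35 members (66.0%), 18 with SEM::EGR3 on the higher side and 17 on the lower, while 70.1% of all genes showed no overlap.

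The median log2 fold change of the members was 0.08, beside 0.03 over all tested genes, and their median absolute change was 0.27 beside 0.46. Their summed level was between 2799 and 2928 CPM in SEM::mock and between 3029.8 and 3149.7 CPM in SEM::EGR3. CPM here are scaled to 1000000 counts of the tested genes after TMM normalization, and levels are means ± SD of the 3 libraries of a line (n = 3). All log2 values compare SEM::EGR3 with SEM::mock, with the standard error (SE) beside the main ones. In bulk RNA a lower share of cells that express a gene and less of its RNA per cell cannot be told apart. The p-values measure the spread between 3 libraries of each line that the labels call biological replicates.

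**Figure D1:**
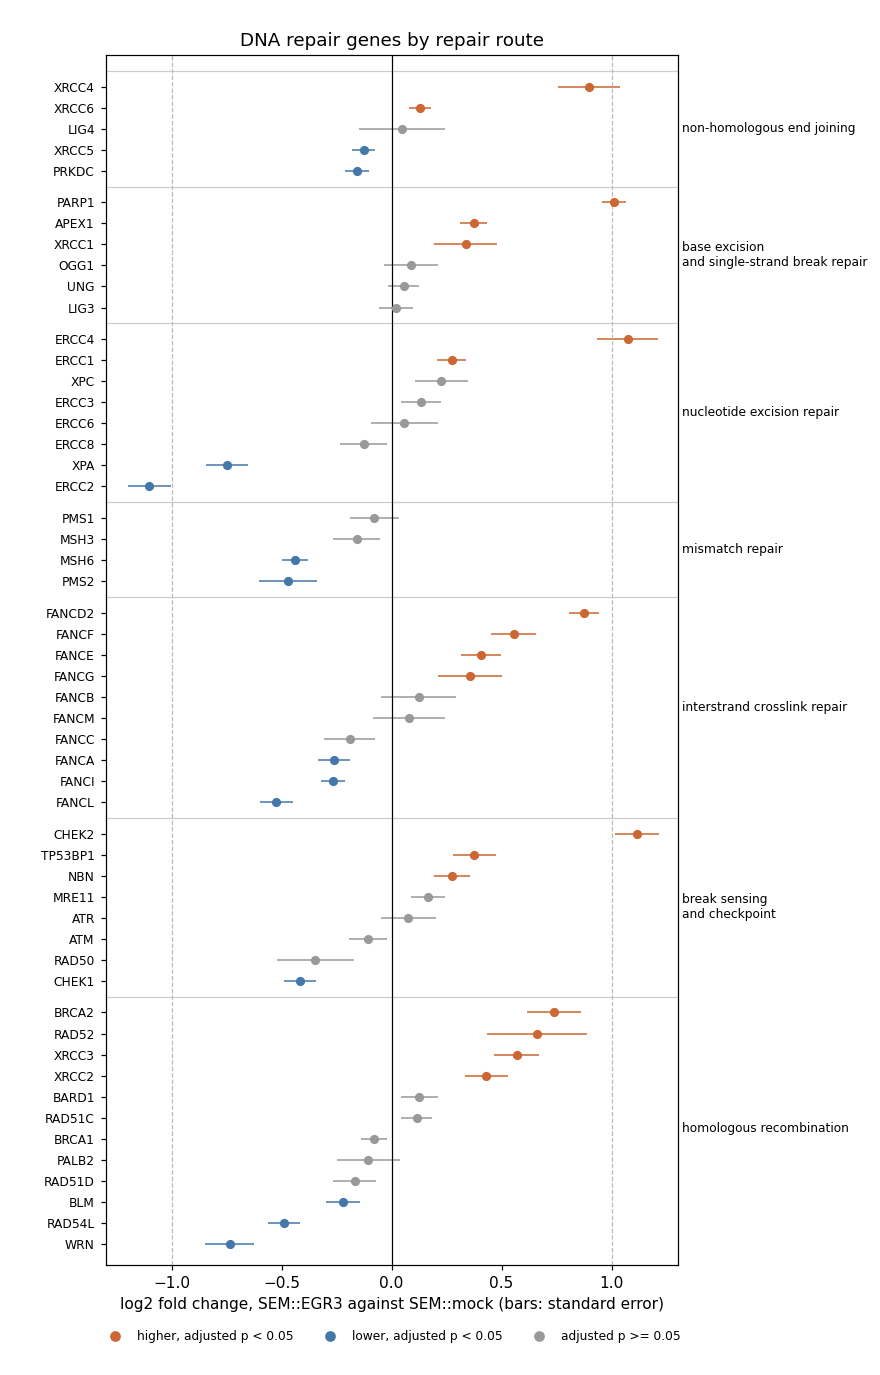
Log2 fold change of SEM::EGR3 against SEM::mock for the 53 tested DNA repair genes, grouped by repair route, with bars of 1 standard error. Orange points are higher and blue points lower at an adjusted p-value under 0.05, grey points did not pass, and the dashed lines mark a log2 fold change of 1 in either direction, reached by CHEK2, ERCC4, PARP1 and ERCC2.

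The 300-base promoter windows of the members with the 2 largest increases (CHEK2 and ERCC4) and the 2 largest decreases (ERCC2 and XPA), among members with at least 20 counts in the higher line, are shown because these genes differed most between the lines. Each window runs from 250 bases before to 50 bases after the RefSeq start (GRCh38.p14), 5′ to 3′ on the strand of the gene, and capitals mark a match to the EGR-type letters GCGNGGGCG on either strand. The windows are chr22:28741771-28742070 (minus strand) for CHEK2, chr16:13919904-13920203 (plus strand) for ERCC4, chr19:45370524-45370823 (minus strand) for ERCC2 and chr9:97697291-97697590 (minus strand) for XPA.
CHEK2: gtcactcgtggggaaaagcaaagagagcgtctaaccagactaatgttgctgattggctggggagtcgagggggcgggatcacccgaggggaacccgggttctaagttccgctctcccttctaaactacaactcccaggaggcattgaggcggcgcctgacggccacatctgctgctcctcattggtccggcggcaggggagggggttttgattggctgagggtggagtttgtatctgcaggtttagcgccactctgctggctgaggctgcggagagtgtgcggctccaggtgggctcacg
ERCC4: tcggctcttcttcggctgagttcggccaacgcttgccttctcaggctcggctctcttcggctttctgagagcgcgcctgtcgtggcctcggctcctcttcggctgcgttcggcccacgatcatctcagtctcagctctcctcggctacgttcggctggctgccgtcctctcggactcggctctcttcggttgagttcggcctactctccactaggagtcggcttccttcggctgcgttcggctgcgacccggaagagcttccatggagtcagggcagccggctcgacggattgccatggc
ERCC2: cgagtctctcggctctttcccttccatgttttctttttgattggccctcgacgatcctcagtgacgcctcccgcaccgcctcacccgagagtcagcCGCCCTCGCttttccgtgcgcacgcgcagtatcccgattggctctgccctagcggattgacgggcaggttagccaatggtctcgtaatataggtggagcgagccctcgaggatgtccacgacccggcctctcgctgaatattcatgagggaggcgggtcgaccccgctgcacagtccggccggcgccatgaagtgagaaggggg
XPA: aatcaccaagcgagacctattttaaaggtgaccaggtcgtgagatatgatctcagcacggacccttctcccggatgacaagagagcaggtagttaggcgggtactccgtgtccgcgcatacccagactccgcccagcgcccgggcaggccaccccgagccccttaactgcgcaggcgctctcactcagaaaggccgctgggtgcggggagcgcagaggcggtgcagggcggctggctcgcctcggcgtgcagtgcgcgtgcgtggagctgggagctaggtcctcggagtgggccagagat
EGR proteins bind GC-rich sites of this kind, and of the 4 windows only that of ERCC2 held the letters, at bases 97 to 105 and in the reverse orientation. The letters occurred in 11 of 71 windows of the 50 members found in the RefSeq table (15.5%) and in 3313 of 35116 windows of all genes (9.4%). Among windows of the higher members 1 of 20 held them, among lower members 4 of 16, and among members that did not pass 5 of 33, while the remaining windows belong to members that were not tested. The E2F-type letters TTTCGCGC or TTTGGCGC, searched on both strands, were found in 3 of the 71 windows (4.2%) and in 1.1% of all windows. These are matches of letters, and binding was not analysed here.

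Homologous recombination copies the missing sequence from the sister chromatid. Of its 12 genes, 4 were higher (BRCA2, XRCC2, XRCC3 and RAD52), 3 lower (WRN, RAD54L and BLM) and 5 did not pass (BRCA1, PALB2, BARD1, RAD51C and RAD51D), with a median log2 fold change of 0.02.

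BRCA2, a mediator of strand exchange at resected ends, lies on chromosome 13 from 32315474 to 32400266 (ENSG00000139618, GRCh38 as are all positions). It was counted 92, 70 and 74 times in SEM::mock and 400, 162 and 199 in SEM::EGR3. Its level rose from 14.2 ± 2.29 to 23.2 ± 2.25 CPM without overlap of the lines. On the log2 scale this is a change of 0.74 (SE 0.12, edgeR adjusted p = 1.02e-05). The 3 other tested genes within 1000000 bases of BRCA2 on either side were also higher, with a median log2 fold change of 0.89. Its partner PALB2, which links BRCA2 to BRCA1, was measured at 86, 84 and 62 counts against 195, 117 and 98, and its log2 fold change of -0.11 did not pass.

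BRCA1 and BARD1 form the ubiquitin ligase that acts at the start of the route. BRCA1 was counted 605, 646 and 603 times in SEM::mock and 1625, 779 and 950 in SEM::EGR3, that is 111 ± 6.21 against 105 ± 0.0929 CPM. Although each SEM::EGR3 library lay below each SEM::mock library, the log2 fold change of -0.08 did not pass (adjusted p = 0.232, edgeR). For BARD1 the log2 fold change was 0.13, also short of the threshold.

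Among the smaller ATPases of the route, XRCC2 and XRCC3 were called and RAD51C and RAD51D were not. XRCC3 (chromosome 14, 103697609 to 103715504) rose from 18.8 ± 1.81 to 27.8 ± 1.29 CPM, with 96, 112 and 105 counts against 431, 216 and 240. The fitted log2 fold change came to 0.57 (SE 0.10, edgeR adjusted p = 2.48e-05). XRCC2 was higher by 0.43 on the log2 scale (SE 0.10, edgeR adjusted p = 4.42e-04), from 146, 156 and 135 counts to 552, 223 and 355. The log2 fold changes of RAD51C (0.11) and RAD51D (-0.17) did not pass. Of the exon bases of XRCC3, 76.7% are shared with KLC1 on the opposite strand. None of these lie in the last 1000 bases before the annotated 3′ end of XRCC3, with introns counted in that window here and below. KLC1 itself did not pass (log2 fold change -0.05), and its part in the XRCC3 value was not tested.

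RAD52, which anneals complementary single strands, was the sparsest of the called members. It was counted 21, 19 and 13 times in SEM::mock and 82, 31 and 48 in SEM::EGR3 (chromosome 12, 912077 to 990053), with a level of 3.15 ± 0.582 against 4.92 ± 0.647 CPM. Its log2 fold change of 0.66 (SE 0.23, edgeR adjusted p = 0.0124) lost its call without SEM::mock replicate 3 (0.52, adjusted p = 0.0768) and under DESeq2 (adjusted p = 0.0689).

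WRN and BLM encode RecQ helicases that resolve recombination and stalled fork structures, and RAD54L encodes a translocase that drives strand exchange. The counts of WRN (chromosome 8, 31033801 to 31173769) were 171, 172 and 172 in SEM::mock and 323, 112 and 164 in SEM::EGR3. Its level fell from 30.9 ± 2.53 to 18.0 ± 2.88 CPM, a log2 fold change of -0.74 (SE 0.11, edgeR adjusted p = 2.21e-06). All 3 SEM::EGR3 libraries lay below the lowest SEM::mock library. RAD54L (chromosome 1, 46247688 to 46278473) was counted 343, 332 and 276 times against 637, 310 and 349, and fell from 56.8 ± 3.40 to 40.5 ± 1.68 CPM. In log2 terms the change was -0.49 (SE 0.07, edgeR adjusted p = 2.63e-06). LRRC41, on the opposite strand, shares 566 exon bases within the last 1000 bases of RAD54L and was also lower (-0.28 on the log2 scale). The part of LRRC41 in the RAD54L value was not tested. BLM was lower by a small amount (log2 fold change -0.22, adjusted p = 0.0146, edgeR), a call lost without SEM::mock replicate 2 (adjusted p = 0.0678), without SEM::EGR3 replicate 2 (adjusted p = 0.0502), under DESeq2 (adjusted p = 0.0548), without normalization factors (adjusted p = 0.112) and with at least 10 counts in every library (adjusted p = 0.0581).

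Break sensing and the checkpoint kinases hold a cell back while damage persists. In this group of 8 genes, CHEK2, TP53BP1 and NBN were higher, CHEK1 was lower, and MRE11, RAD50, ATM and ATR did not pass (median log2 fold change 0.12). The effector kinases of the pathway moved apart. CHEK2, the kinase downstream of ATM (ENSG00000183765, chromosome 22, 28687743 to 28742422), was counted 87, 105 and 82 times in SEM::mock and 578, 252 and 312 in SEM::EGR3. Its level of 16.3 ± 1.13 CPM rose to 35.2 ± 1.79 CPM, and every SEM::EGR3 library was above every SEM::mock library. The log2 fold change of 1.11 was the largest increase among the members (SE 0.10, edgeR adjusted p = 3.42e-10), and stayed between 1.05 and 1.16 over the fits that each left out a library. CHEK1, the kinase downstream of ATR (chromosome 11, 125625136 to 125676255), was counted 470, 449 and 480 times against 980, 456 and 578. It fell from 84.1 ± 9.51 to 62.8 ± 1.27 CPM, a log2 fold change of -0.41 (SE 0.07, edgeR adjusted p = 1.88e-05).

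The upstream kinases did not pass. ATM was counted 199, 224 and 206 times against 568, 269 and 285 (log2 fold change -0.11), and ATR had 84, 81 and 84 against 221, 124 and 153 (0.08). TP53BP1, which steers breaks towards end joining (chromosome 15, 43403061 to 43510728), rose from 28.6 ± 1.86 to 36.7 ± 5.18 CPM, with 172, 171 and 136 counts against 602, 229 and 367. This corresponds to a log2 fold change of 0.38 (SE 0.10, edgeR adjusted p = 0.00176). TUBGCP4 on the opposite strand shares 782 exon bases within the last 1000 bases of TP53BP1 and was higher by 0.40. Reads of the pair cannot be told apart there if strand was not used in counting.

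MRE11, RAD50 and NBN form the complex that tethers broken ends, and its parts were not called alike. NBN (chromosome 8, 89933336 to 90003228) was counted 214, 193 and 199 times in SEM::mock and 672, 329 and 398 in SEM::EGR3, a rise from 36.4 ± 3.57 to 43.9 ± 0.495 CPM. The fit put the log2 fold change at 0.27 (SE 0.08, edgeR adjusted p = 0.00496), lost without SEM::mock replicate 2 (0.18, adjusted p = 0.0818). MRE11 was at 0.16 (adjusted p = 0.0612) and RAD50 at -0.35 (adjusted p = 0.0840), neither past the threshold although the libraries of both genes did not overlap between the lines. RAD50 had at most 95 counts in a library, and 79.7% of its exon bases also belong to the annotated gene AC116366.3, not analysed here.

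The Fanconi anemia genes cooperate in unhooking interstrand crosslinks, and 7 of the 10 were called (70%, beside 68.5% of all tested genes). FANCD2, FANCF, FANCE and FANCG were higher, FANCL, FANCI and FANCA lower, and FANCB, FANCC and FANCM did not pass (median log2 fold change 0.10). FANCD2 and FANCI are the paired proteins that the pathway marks with ubiquitin. FANCD2 (ENSG00000144554, chromosome 3, 10026414 to 10101930) was counted 247, 269 and 220 times in SEM::mock and 1255, 571 and 756 in SEM::EGR3. It rose from 43.9 ± 0.992 to 80.5 ± 3.35 CPM, and the lowest SEM::EGR3 library was at 76.9 CPM against at most 45.1 CPM in SEM::mock. On the log2 scale this is a change of 0.87 (SE 0.07, edgeR adjusted p = 4.19e-11). FANCI (chromosome 15, 89243949 to 89317261) went the other way, with 892, 933 and 779 counts against 2006, 942 and 1186, that is 156 ± 2.51 against 129 ± 2.11 CPM. The fitted log2 fold change came to -0.27 (SE 0.05, edgeR adjusted p = 1.19e-04). POLG on the opposite strand shares 431 exon bases within the last 1000 bases of FANCI and did not pass (-0.09). The part of POLG in the FANCI value was not tested.

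Among the subunits of the core complex that carries out this ubiquitination, FANCF and FANCL were the furthest apart. FANCF, an adaptor of the complex (chromosome 11, 22622890 to 22625841), was counted 101, 116 and 83 times against 414, 194 and 235. Its level rose from 17.9 ± 1.58 to 26.3 ± 0.384 CPM, a log2 fold change of 0.55 (SE 0.10, edgeR adjusted p = 3.31e-05). FANCL, the ubiquitin ligase (chromosome 2, 58159243 to 58241372), fell from 52.9 ± 2.71 to 36.8 ± 0.563 CPM, with 314, 299 and 271 counts against 569, 269 and 338. The log2 fold change of FANCL was -0.52 (SE 0.07, edgeR adjusted p = 1.01e-06). VRK2 on the opposite strand shares 452 exon bases within the last 1000 bases of FANCL and was lower (-0.54). The part of VRK2 in the value of FANCL was not tested. FANCE was higher (0.41, adjusted p = 3.35e-04) and FANCA lower (-0.26, adjusted p = 0.00224), both by the same edgeR test. ZNF276 on the opposite strand, which shares 837 exon bases within the last 1000 bases of FANCA, was lower (-0.72).

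FANCG was called higher (0.36, adjusted p = 0.0329, edgeR) although its libraries overlapped, with 69, 101 and 52 counts in SEM::mock and 290, 112 and 146 in SEM::EGR3. The call was lost under DESeq2 (adjusted p = 0.0948), without SEM::mock replicate 1 (0.136), without SEM::mock replicate 3 (0.260) and without SEM::EGR3 replicate 1 (0.197), all adjusted p-values. FANCB (0.12), FANCC (-0.19) and FANCM (0.08), the last of which anchors the core complex to DNA, had log2 fold changes that did not pass.

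Among routes with tested members, mismatch repair was the one with no member called higher. Of its 4 genes 50% were called lower, beside 32.0% lower and 36.5% higher over all tested genes. MSH6 and PMS2 were lower, MSH3 and PMS1 did not pass, and all 4 log2 fold changes were negative (median -0.30). MSH6, which recognises base mismatches (ENSG00000116062, chromosome 2, 47695530 to 47810101), was counted 807, 800 and 666 times in SEM::mock and 1568, 719 and 924 in SEM::EGR3. It fell from 136 ± 6.19 to 100.0 ± 2.80 CPM, with the highest SEM::EGR3 library at 102 CPM and the lowest SEM::mock library at 131 CPM. In log2 terms the change was -0.44 (SE 0.06, edgeR adjusted p = 3.76e-07). FBXO11 on the opposite strand shares 217 exon bases within the last 1000 bases of MSH6 and was higher by 0.93. PMS2, which nicks the new strand (chromosome 7, 5973239 to 6009125), was counted 83, 79 and 78 times against 156, 72 and 103. Its level was 14.4 ± 1.06 against 10.4 ± 0.887 CPM, a log2 fold change of -0.47 (SE 0.13, edgeR adjusted p = 0.00290). PMS2 has near-identical pseudogene copies, and how reads that map to several places were counted is not given in the sources used here. MSH3, which recognises larger loops, was at -0.16 and PMS1 at -0.08.

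Nucleotide excision repair held both the largest decrease and the second largest increase of all members. Of its 8 tested genes, ERCC4 and ERCC1 were higher, ERCC2 and XPA lower, and XPC, ERCC3, ERCC6 and ERCC8 did not pass (median log2 fold change 0.10). ERCC4 encodes XPF, the nuclease that cuts 5′ of a lesion as a heterodimer with ERCC1. ERCC4 (ENSG00000175595, chromosome 16, 13920157 to 13952345) was counted 39, 55 and 38 times in SEM::mock and 256, 119 and 156 in SEM::EGR3. It rose from 7.85 ± 1.21 to 16.6 ± 0.610 CPM without overlap. This corresponds to a log2 fold change of 1.07 (SE 0.14, edgeR adjusted p = 2.47e-07), between 0.97 and 1.20 with a library left out. ERCC1 (chromosome 19, 45407333 to 45478828) also rose, from 72.8 ± 4.93 to 87.9 ± 0.936 CPM, with 411, 406 and 397 counts against 1358, 660 and 788. The fit put the log2 fold change at 0.27 (SE 0.06, edgeR adjusted p = 6.47e-04). CD3EAP on the opposite strand shares 200 exon bases within the last 1000 bases of ERCC1 and was lower (-0.71). The part of CD3EAP in the ERCC1 value was not tested.

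ERCC2 and ERCC3 encode XPD and XPB, the helicases of the TFIIH complex that open DNA around a lesion. ERCC2 (ENSG00000104884, chromosome 19, 45349837 to 45370918) was counted 299, 273 and 230 times in SEM::mock and 308, 193 and 204 in the more deeply sequenced SEM::EGR3 libraries. Its level fell from 47.9 ± 4.30 to 22.8 ± 3.07 CPM, a log2 fold change of -1.10 (SE 0.10, edgeR adjusted p = 3.24e-10). The values lay between -1.19 and -0.98 with a library left out, and the lines did not overlap. KLC3 on the opposite strand shares 236 exon bases within the last 1000 bases of ERCC2 and moved the opposite way, from 5, 4 and 2 to 93, 53 and 46 counts. The 48 other tested genes within 1000000 bases of ERCC2 had a median log2 fold change of -0.30. ERCC3 was counted 232, 221 and 161 times against 626, 317 and 342, and its log2 fold change of 0.13 did not pass.

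XPA checks the damaged strand and positions the nucleases. XPA (chromosome 9, 97674909 to 97697357) was counted 201, 195 and 169 times against 313, 166 and 163, and fell from 33.8 ± 1.53 to 20.2 ± 2.17 CPM. On the log2 scale this is a change of -0.75 (SE 0.10, edgeR adjusted p = 2.29e-07), with no overlap. The lesion sensor XPC was at 0.23 (adjusted p = 0.102), and the transcription-coupled factors ERCC6 and ERCC8 were at 0.06 and -0.13. ERCC5, the nuclease that cuts on the other side of the lesion, was listed at 0 counts in each of the 6 libraries, where 3 counts correspond to between 0.194 and 0.588 CPM. In the annotation, 63.2% of its exon bases also belong to the read-through gene BIVM-ERCC5 on the same strand, not analysed here, and the part of this overlap in the value of 0 was not tested.

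**Figure D2:**
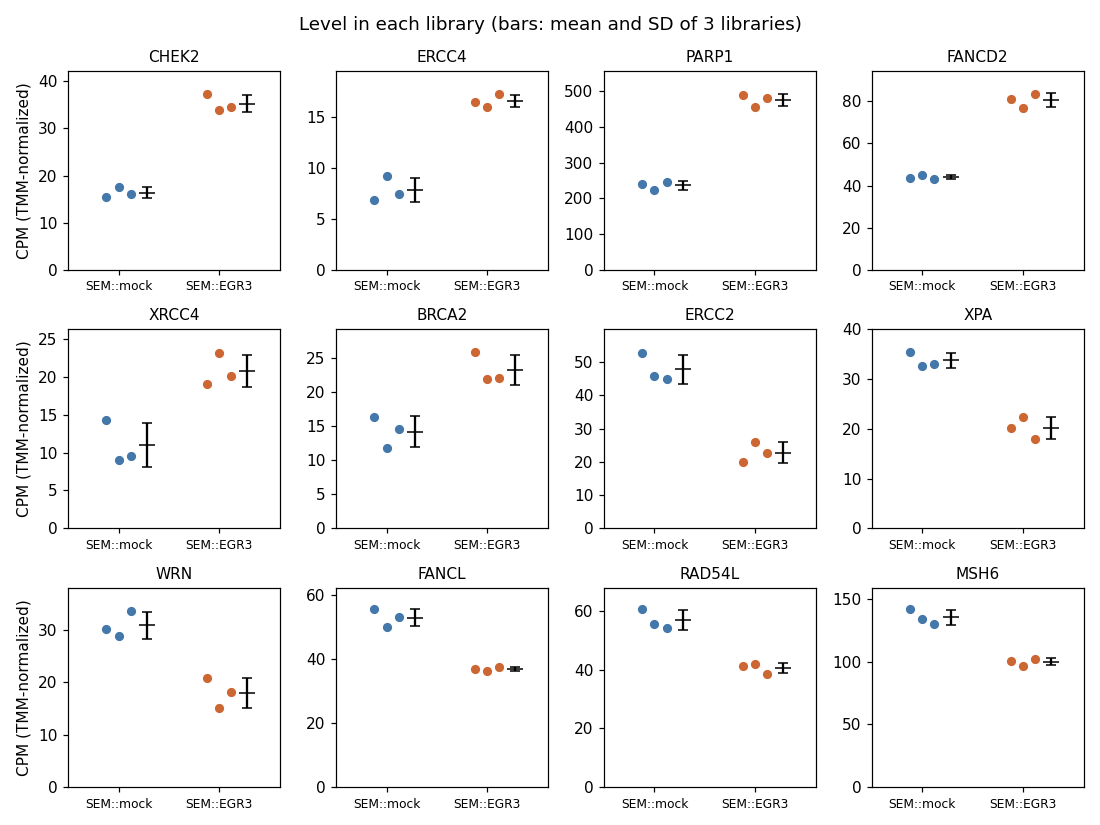
TMM-normalized CPM of 12 DNA repair genes in each of the 3 SEM::mock (blue) and 3 SEM::EGR3 (orange) libraries, with the mean and SD beside the points and axes that start at 0. The 12 genes were picked from members with larger called changes, the first 6 higher in SEM::EGR3 and the last 6 lower. That the libraries of the lines do not overlap in any of them largely follows from this choice. Over all tested members 66.0% showed no overlap, and over all tested genes 70.1%.

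Base excision and single-strand break repair had 3 of its 6 tested genes higher (PARP1, APEX1 and XRCC1) and none lower, and OGG1, UNG and LIG3 did not pass (median log2 fold change 0.21). Over all tested genes 36.5% were higher and 32.0% lower. Genes of this route outside the members went both ways. Examples picked after their values were seen are POLB (-0.83) and MBD4 (-0.74), which were lower, and PARP2 (0.60) and NEIL3 (0.50), which were higher. PARP1, which senses nicks and builds poly(ADP-ribose) chains, was the most precisely measured of the large changes. PARP1 (ENSG00000143799, chromosome 1, 226360691 to 226408079) was counted 1360, 1329 and 1251 times in SEM::mock and 7585, 3381 and 4345 in SEM::EGR3. It rose from 236 ± 11.9 to 475 ± 17.5 CPM, and its lowest SEM::EGR3 library was at 455 CPM against a highest SEM::mock library of 245 CPM. The fitted log2 fold change came to 1.01 (SE 0.05, edgeR adjusted p = 2.61e-14), between 0.96 and 1.04 with a library left out. The 16 other tested genes within 1000000 bases had a median log2 fold change of 0.00.

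APEX1, the endonuclease that cuts at abasic sites (chromosome 14, 20455191 to 20457772), rose from 109 ± 6.70 to 141 ± 6.54 CPM. Its counts were 661, 623 and 542 against 2305, 1023 and 1239, and its log2 fold change was 0.37 (SE 0.06, edgeR adjusted p = 7.92e-06). PIP4P1 on the opposite strand shares 54 exon bases within the last 1000 bases of APEX1 and was higher (0.36). XRCC1, the scaffold that holds LIG3, was counted 54, 55 and 41 times against 182, 82 and 99 (chromosome 19, 43543040 to 43580473), or 8.93 ± 0.789 against 11.2 ± 0.434 CPM. Its log2 fold change of 0.34 (SE 0.14, edgeR adjusted p = 0.0402) passed narrowly, and leaving out SEM::mock replicate 1, 2 or 3 or SEM::EGR3 replicate 1 or 3 gave adjusted p-values of 0.0570, 0.0737, 0.170, 0.121 and 0.0519. The XRCC1 call was also lost under DESeq2 (adjusted p = 0.144), without a filter (0.0846) and with the replicate block (0.0661). The glycosylases OGG1 and UNG, which remove oxidised guanine and uracil, were at 0.09 and 0.05, and LIG3 was at 0.02. RFFL on the opposite strand shares all of the last 1000 bases of LIG3 and was lower (-0.54). TADA3 on the opposite strand shares 356 exon bases within the last 1000 bases of OGG1 and was lower (-0.80). The parts of RFFL and TADA3 in these values were not tested.

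Non-homologous end joining rejoins ends directly. Of its 5 genes XRCC4 and XRCC6 were higher, PRKDC and XRCC5 lower, and LIG4 did not pass (median log2 fold change 0.05), but of these calls only that of XRCC4 exceeded 0.2 on the log2 scale. XRCC4, the scaffold of the final ligation (ENSG00000152422, chromosome 5, 83077498 to 83353787), was counted 81, 54 and 49 times in SEM::mock and 296, 172 and 182 in SEM::EGR3. Its level rose from 11.0 ± 2.89 to 20.8 ± 2.12 CPM. In log2 terms the change was 0.90 (SE 0.14, edgeR adjusted p = 5.30e-06), between 0.75 and 1.12 with a library left out, and the lines did not overlap. The 4 other tested genes within 1000000 bases of XRCC4 had a median log2 fold change of 0.87, with 2 called higher and 1 lower. The ligase that XRCC4 holds, LIG4, was counted 32, 36 and 36 times against 114, 34 and 60, with a log2 fold change of 0.05 that turned to -0.12 without SEM::EGR3 replicate 1.

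XRCC5 and XRCC6, the Ku subunits that cap broken ends, and PRKDC, the kinase they recruit, were close to level between the lines. XRCC6 (chromosome 22, 41621119 to 41664048) was counted 1515, 1636 and 1382 times against 4575, 2202 and 2697, or 271 ± 3.15 against 297 ± 1.49 CPM. This corresponds to a log2 fold change of 0.13 (SE 0.05, edgeR adjusted p = 0.0259). XRCC5 (chromosome 2, 216107464 to 216206303) was counted 1944, 1990 and 1829 times against 5034, 2374 and 2748, with levels of 345 ± 12.8 against 316 ± 11.0 CPM, a log2 fold change of -0.13 (SE 0.05, edgeR adjusted p = 0.0374). PRKDC (chromosome 8, 47773108 to 47960183) was counted 1127, 1187 and 1039 times against 2856, 1268 and 1661, with levels of 201 ± 2.76 against 179.5 ± 7.57 CPM. The log2 fold change of PRKDC was -0.16 (SE 0.05, edgeR adjusted p = 0.0132). The libraries of all 3 genes did not overlap, yet these calls depend on single libraries and on the scaling or filter. Without SEM::mock replicate 1, 2 or 3 or SEM::EGR3 replicate 3, XRCC6 had an adjusted p of 0.110, 0.0657, 0.101 and 0.0697. XRCC5 had an adjusted p of 0.106 without SEM::mock replicate 3 and of 0.181 without SEM::EGR3 replicate 3, and PRKDC of 0.0635 without SEM::EGR3 replicate 2. Without normalization factors the adjusted p was 0.428 for XRCC5 and 0.205 for PRKDC, and without a filter it was 0.0744 for XRCC6.

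MGMT, which removes alkyl groups from guanine directly, was not tested. No SEM::mock library had a count of it, and the SEM::EGR3 libraries had 1, 3 and 6, close to the limit of 3 counts per library below which no fold is given, a limit that covers counting error only.

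Several repair proteins act as pairs, and a ratio of the counts of both genes within a library does not depend on how the libraries are scaled. The 9 pairs were chosen after their values were seen, so the ratios are a description without a test. The FANCD2 to FANCI ratio was 0.277, 0.288 and 0.282 in SEM::mock and 0.626, 0.606 and 0.637 in SEM::EGR3, a mean of 0.623 against 0.283, or 2.21-fold higher. The CHEK2 to CHEK1 ratio went from 0.185, 0.234 and 0.171 to 0.590, 0.553 and 0.540, which is 2.88-fold higher. The ERCC4 to ERCC1 ratio was 1.76-fold higher, with 0.0949, 0.135 and 0.0957 against 0.189, 0.180 and 0.198. In these 3 pairs the ratio differed between the lines by more than it varied within either. The XRCC4 to LIG4 ratio was 1.98-fold higher but spread widely, with 2.53, 1.5 and 1.36 against 2.60, 5.06 and 3.03. The PALB2 to BRCA2 ratio had a mean of 0.991 ± 0.187 in SEM::mock and 0.567 ± 0.134 in SEM::EGR3. The smaller shifts were 1.14-fold for BARD1 to BRCA1, 1.20-fold for XRCC6 to XRCC5 and 1.24-fold for XRCC1 to LIG3. Only the MSH3 to MSH6 ratio overlapped between the lines (0.199 ± 0.0243 against 0.240 ± 0.0248), and the other 8 pairs did not. Of all tested single genes 70.1% showed no overlap either, and ratios of other gene pairs were not computed.

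**Figure D3:**
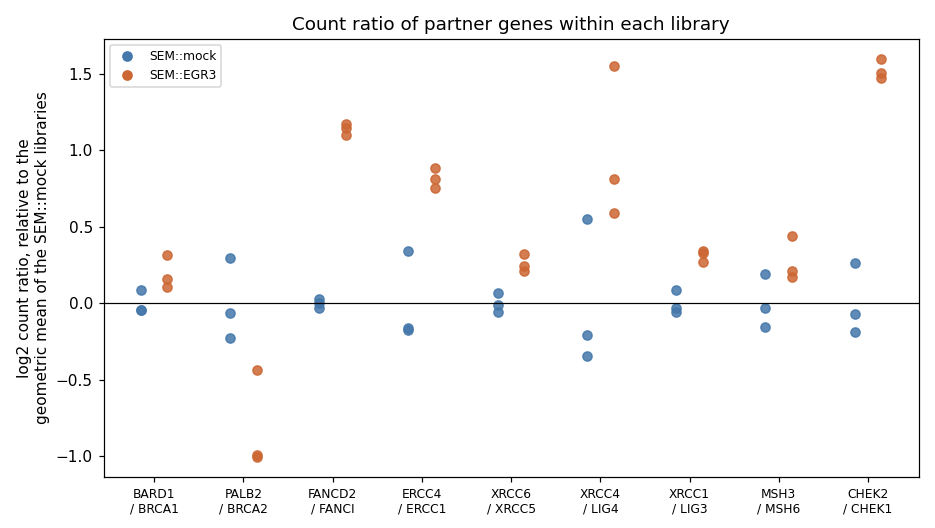
Log2 count ratio of 9 pairs of repair genes in each library, centred on the geometric mean of the 3 SEM::mock libraries (blue), with the SEM::EGR3 libraries in orange. By the mean of the SEM::EGR3 libraries, the ratios of CHEK2 to CHEK1 and FANCD2 to FANCI stand furthest above the SEM::mock libraries. That of PALB2 to BRCA2 lies below them, and that of MSH3 to MSH6 overlaps. The XRCC4 to LIG4 points spread widely, and that of SEM::EGR3 replicate 2 (ratio 5.06) lies above all FANCD2 to FANCI points.

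Other genes of the same routes, listed by function, also moved in both directions. Of 73 tested, 22 were higher and 23 lower by the same edgeR test, which is 61.6% called beside 68.5% of all genes, with a median log2 fold change of -0.04 and a median absolute change of 0.36. None passed 2-fold, and the log2 fold changes ran from -0.88 to 0.96. Under a minimum of 10 counts in every library, where the scale shifts by 0.05, 2 of 72 passed 2-fold. Leaving out SEM::mock replicate 1, SEM::mock replicate 2 or SEM::EGR3 replicate 1 let 1 gene pass. The 2 largest increases, named after their values were seen, were those of FAAP24 (0.96), a partner of FANCM, and EME1 (0.96), a subunit of the MUS81 nuclease. The 2 largest decreases, named in the same way, were those of POLI (-0.88) and CENPX (-0.85).

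**Figure D4:**
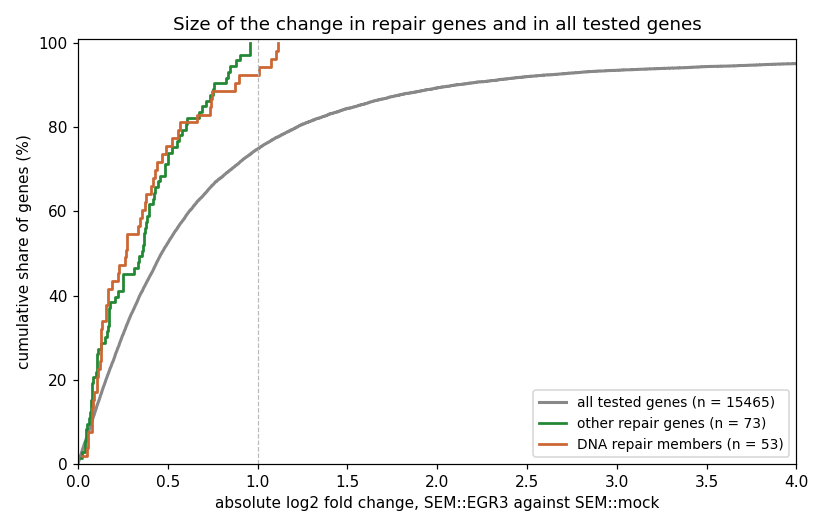
Cumulative share of genes (in %) against the absolute log2 fold change of SEM::EGR3 against SEM::mock, for the 53 DNA repair genes, 73 other repair genes and 15465 tested genes, with the x axis ending at 4. Both repair curves rise faster than that of all genes, with medians of 0.27 and 0.36 beside 0.46. The curve of all genes includes genes with fewer counts than the members, and a curve limited to genes of like counts was not made.

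Since many repair genes are transcribed mainly in dividing cells, cell cycle genes are given beside them. Of 20 S-phase genes 8 were higher and 7 lower (median log2 fold change 0.00), among them MCM2 (0.61) and CDC45 (-0.91), both parts of the replicative helicase, and UHRF1 (1.94), which helps maintain DNA methylation. Of 20 G2/M genes 11 were higher and 3 lower (median 0.14), among them MKI67 (0.60) and BUB1 (-0.67). UBE2C, a ubiquitin-conjugating enzyme of mitotic exit, stood apart in that list with 4, 6 and 5 counts in SEM::mock against 1301, 595 and 702, or 0.897 ± 0.166 against 80.6 ± 3.18 CPM. The S-phase list summed to between 3837 and 3909.9 CPM in SEM::mock and between 3752 and 3807 CPM in SEM::EGR3, and the G2/M list to between 2023 and 2094 CPM against between 2289 and 2379 CPM. Called genes made up 75% of the S-phase list and 70% of the G2/M list, beside 68.5% of all tested genes. The 6 named cell cycle genes were chosen after their values were seen. The part of cell cycle state in the changes of the repair genes was not tested.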

How the data were processed

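RNA of 3 SEM::mock and 3 SEM::EGR3 libraries was measured by MACE-Seq, and groups and replicate numbers were taken from the labels. The authors deposited whole counts for each gene in each library, and per the submitters' processing notes bcl2fastq, Bowtie2, HTSeq and the build GRCh38 were used, while annotation, strand setting and treatment of multi-mapping reads are not given in the sources used here. The column headings spell the induced gene ERG3 and were read as EGR3, the name on the labels. The table also holds CPM values, size-factor scaled signal, log2 fold changes and p-values of the authors' own comparison, deposited by the authors and not used here. Depth over the listed genes was 5286115 to 6181388 counts in SEM::mock and 7293092 to 15106018 in SEM::EGR3, of which the members took between 14743 and 48832. The shallower SEM::mock libraries limit the precision of genes with few counts.

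The test was run with edgeR 4.0.16 in R 4.3.3 (filterByExpr, TMM, glmQLFit and glmQLFTest over all 6 libraries), with Benjamini-Hochberg adjustment over the 15465 tested genes and a threshold of 0.05. A change of 2-fold is a log2 fold change of 1 or more in size. The standard error is the log2 fold change divided by the square root of the F statistic. The procedure was also run on simulated counts that used the spread between replicates estimated from these data. Far fewer genes were changed there than the 68.5% called here. That run therefore does not check the scaling or the rate of false calls in these data. Alternatives were DESeq2 1.42.0, other scalings and filters, the replicate number as a block, and each library left out in turn. Every member is named, with full values for those called with a change of at least 2-fold and for the 2 highest and 2 lowest called members of each route. Values of some further members are given for comparison within a route or complex. The spread among replicates of a line was above counting noise. Positions are those of GENCODE release 29 (GRCh38), which holds all 55 members, and promoters are RefSeq windows (GRCh38.p14). The members, routes, marker lists and tests were chosen with earlier results of these data known.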

Additional observations from a re-analysis of the deposited data

How the results depend on the processing

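Over 13 alternatives, the counts of higher members ranged from 14 to 23 and those of lower members from 10 to 13, and 633 of 689 fits of single members kept direction and side of the threshold, 37 lost and 10 gained the call, and 9 turned. The number of members past 2-fold was 4, ranged from 2 to 4 with a library left out and was 5 without a filter, where MGMT (direct reversal, 1 higher) was also called. By route, nucleotide excision repair had 4 higher members without normalization factors. For end joining, higher members numbered 1 without a filter and with the replicate block, and between 1 and 2 with a library left out. The lower end joining members numbered 1 with upper-quartile normalization, without a filter and with the replicate block, 0 without normalization factors and with at least 10 counts in every library, and between 1 and 2 with a library left out. Other repair genes past 2-fold numbered 2 without normalization factors and with at least 10 counts in every library, and between 0 and 1 with a library left out. Lower G2/M genes numbered 1 in the same 2 settings. Against the main scaling, all genes shifted by a median of 0.08 without normalization factors and 0.05 with at least 10 counts in every library.

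The members that turned did not pass in any of these fits. With a library left out, the log2 fold changes ran from -0.0059 to 0.18 for ATR, from -0.0068 to 0.26 for FANCB, from -0.013 to 0.17 for FANCM, from -0.047 to 0.12 for ERCC6, from -0.033 to 0.15 for OGG1, from -0.039 to 0.071 for LIG3 and from -0.12 to 0.19 for LIG4. The negative values came without SEM::mock replicate 2 (ATR, FANCM, ERCC6, and LIG3 at -0.016), without SEM::mock replicate 3 (OGG1 and LIG3), without SEM::mock replicate 1 (LIG4 at -0.035) and without SEM::EGR3 replicate 1 (FANCB and LIG4). The cause was not tested.

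Replicate numbers did not pair the libraries, as deviations from the line means of same-numbered libraries correlated at -0.14, -0.09 and -0.04. The replicate block gave 27 called members in place of 31 (15 higher and 12 lower), without FANCG (adjusted p = 0.0505), XRCC1 (0.0661), XRCC5 (0.101) and XRCC6 (0.0800). DESeq2 called 27 as well, but without RAD52, BLM, FANCG and XRCC1.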
